A study of Homo sapiens with 63 samples.

Results

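Mitochondrial ribosomal protein mRNAs were followed through sedimentation gradients of HEK293 cells, an established line derived from human embryonic kidney. Members were all genes whose symbol begins with MRPL or MRPS and a digit, which gave 78 of 11074 genes in the table: 49 MRPL, named for the large mitoribosomal subunit, and 29 MRPS, named for the small subunit. The cells were grown in DMEM with serum and compared as growing cells (log phase), as cells kept 2 h without serum, and as cells kept 1 h without amino acids in a buffered salt solution (EBSS) that still held vitamins and serum. Cells of all 3 groups were given cycloheximide for 10 minutes before lysis, so that elongating ribosomes stayed on their mRNAs, and poly(A)+ RNA of 20 fractions, numbered 3 to 22, was sequenced from each gradient. With 1 gradient per condition the differences below lack replicates, and no test across conditions was made. Which end of the gradient is heavier is not stated in the labels, and positions are therefore called lower- or higher-numbered. Of the 6 genes fixed as markers of HEK293 cells, NEFL, NEFM, INA, VIM and LIN28B had values. No value was read for the 7 markers of blood, liver or connective tissue cells.

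The mitoribosome is built inside mitochondria from rRNA made on the mitochondrial genome and from proteins that are all encoded in the nucleus, translated by cytosolic ribosomes and then imported. It translates the few mRNAs of mitochondrial DNA, whose products are subunits of the oxidative phosphorylation complexes. Cytosolic ribosomal protein mRNAs begin with a C followed by a run of pyrimidines, the 5' terminal oligopyrimidine tract, through which mTORC1 and LARP1 control their translation when nutrients change. Most mitoribosomal protein mRNAs are not counted in that class. Not every symbol tells the place of the protein: MRPS30 and MRPS18A lie in the large subunit, and MRPS36 (KGD4) is a subunit of the oxoglutarate dehydrogenase complex.

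The starts of the members are shown first, because the strongest redistribution below belonged to a member that begins with such a tract. RefSeq (GRCh38.p14) start records covered 69 of the 78 members. MRPL10, MRPL13, MRPL15, MRPL2, MRPL21, MRPL23, MRPL35, MRPS28 and MRPS36 had no record. A tract was called where the annotated first base is C and at least 4 further bases, each C or T, follow it without a break, read on the gene's strand only; where a gene has several starts, the longest tract was used. By this measure 6 of 69 members (8.70%) had a tract, against 668 of 8699 tested genes with a start record (7.68%) and 4.07% of all 35116 starts in the RefSeq table. Each line gives 10 bases before and 20 bases from the annotated start, 5' to 3', with the tract in capitals. MRPS27 (chr5:72320221-72320250, minus strand) had the longest tract of the 6, with 6 bases, and the others had 5. They are MRPL45 (chr17:38297158-38297187, plus), MRPL44 (chr2:223957453-223957482, plus), MRPL53 (chr2:74472661-74472690, minus), MRPS33 (chr7:141014933-141014962, minus) and MRPS2 (chr9:135499955-135499984, plus). MRPS33 and MRPS2 each also have a second start without a tract. RPS6 of the cytosolic small subunit (chr9:19380217-19380246, minus) is given for comparison. MRPS35 (chr12:27710822-27710851, plus) is given as a member without a tract that, on the deposited scale, moved less towards lower-numbered fractions than the median gene.
MRPS27: gttggctgttCCTTTTggtacgctccaaga
MRPL45: ttcccggcggCCTTTgcgggaacaagatgg
MRPL44: ccatcgttttCTCTCgtgcaatggcgtccg
MRPL53: tgcacgagttCTTCCggggcggaggtcacc
MRPS33: gagggcgggcCTTCCgggacgagggcgcgt
MRPS2: gggccgggttCCTCTgcgggtgggtccgga
RPS6: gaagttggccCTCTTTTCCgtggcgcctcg
MRPS35: ccggcttgccgtcctcgcagccatggcggc
A match describes these letters at an annotated start. It is not evidence of a site that works, and the start used in these cells was not measured.

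The deposited values, called signal, carry a scale per fraction whose origin is unknown. Fraction totals ran from 36830 to 66981627, and library depth is unknown, so no counting error could be attached. A gene was tested where its mean signal was at least 5 in each gradient and above 0 in at least 15 of its 20 fractions, which 10889 genes were. All 78 members passed, none had a fraction at 0, and the lowest mean signal of a member in any gradient was 114. The gene table names pseudogenes for 42 of the members, and reads shared with such near copies make their values uncertain: MRPS21 has 9, MRPL57 has 8 and MRPL42 has 6.

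In growing cells the mRNAs of both subunits lay where the bulk of all mRNAs lay. Position is the mean fraction number, each fraction weighted by the gene's signal in it. The median position was 16.93 for MRPL (range 14.57 to 18.70), 17.00 for MRPS (14.91 to 18.64) and 16.94 for all tested genes. The difference of MRPL minus MRPS was -0.069 fractions, with -0.060 in odd and -0.065 in even fractions, and it turned to 0.11 when MRPS30 and MRPS18A were counted with the large subunit and MRPS36 was left out. The middle ranges of the subunits covered each other, from 16.30 to 17.65 for MRPL and from 16.15 to 17.37 for MRPS between the quartiles. In this gradient the median member held 7.69% of its signal in fractions 8 to 12, 42.3% in fractions 13 to 17 and 49.2% in fractions 18 to 22. The highest median share fell in fraction 18 for both subunits, at 20.7% for MRPL, 18.0% for MRPS and 16.3% for all genes.

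**Figure D1:**
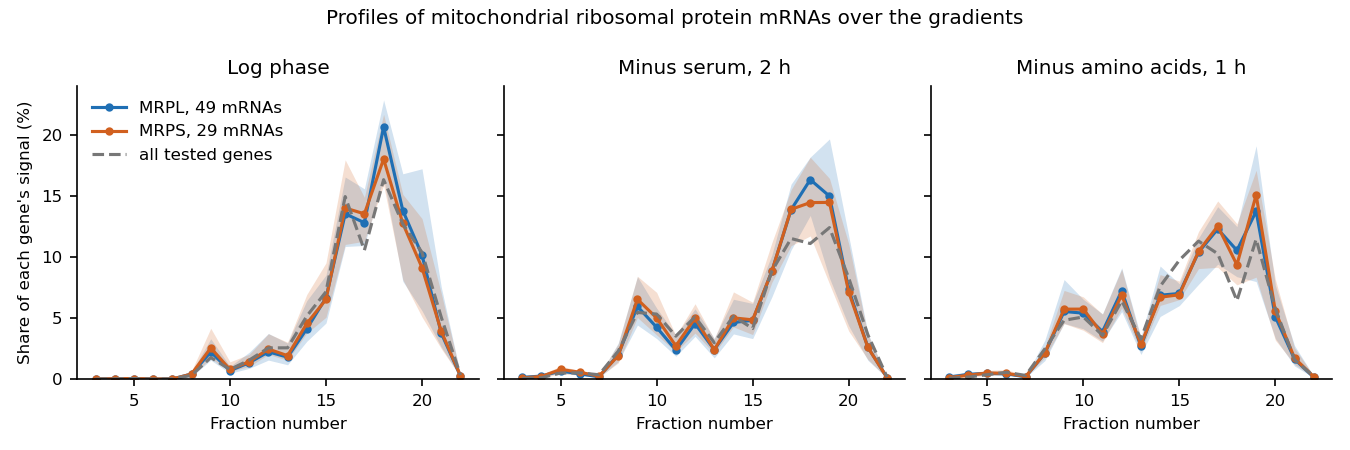
Median share of each gene's signal (percent, vertical axis) in fractions 3 to 22 (horizontal axis) for 49 MRPL mRNAs, 29 MRPS mRNAs and all tested genes in the 3 gradients. Shaded bands run from the lower to the upper quartile of the members; the 2 subunits' bands overlap, and on the deposited scale fractions 8 to 12 hold more of every group in both starved gradients than in log phase.

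Members were spread widely among themselves in log phase. Within the large subunit the lowest-numbered positions were those of MRPL51 (14.57), MRPL11 (14.72), a protein of the stalk base, and MRPL33 (14.74). MRPL15 (18.70), MRPL16 (18.57) and MRPL39 (18.42) had the highest. Within the small subunit MRPS6 (14.91), MRPS21 (15.35) and MRPS12 (15.43), a protein of the decoding site, were lowest, while MRPS31 (18.64), MRPS27 (18.34) and MRPS18B (18.02) were highest. MRPL51 had a broad profile, with signal between 20.2 in fraction 6 and 18128 in fraction 16 around a median of 4658. MRPL15 had a narrow one at the other end, from 2.17 in fraction 6 to 16632 in fraction 20 around a median of 419. MRPL15 held 80.7% of its signal in fractions 18 to 22 and MRPL51 held 18.9%.

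Proteins with a bacterial counterpart were set beside those found in mitochondria only. In the large subunit the 30 members with a counterpart had a median log-phase position of 17.15 and the 19 others 16.64, a difference of 0.51 fractions. In the small subunit the order was the other way round: 16.53 for 16 members with a counterpart and 17.33 for 9 without. The direction was therefore not shared by the subunits. Not every MRPS member was in these groups: MRPS18A, MRPS18B and MRPS30, mitochondria specific by systematic name, were among those left out. The 3 relatives of the bacterial S18 protein, MRPS18A (17.19), MRPS18B (18.02) and MRPS18C (16.84), were not close together in log phase.

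On the deposited scale all 78 members lay at lower-numbered positions in both starved gradients than in log phase, as did 98.1% of all tested genes without serum and 99.2% without amino acids. The direction of the medians turned with equal totals in all fractions. Without serum the median position was 15.85 for MRPL, 15.81 for MRPS and 15.62 for all genes. Without amino acids it was 15.31, 15.42 and 15.12. With equal fraction totals the medians of MRPL were 14.68 in log phase, 15.69 in the serum-starved and 15.81 in the amino acid-starved gradient, and those of MRPS 14.86, 16.05 and 16.25, so that the common movement rests on how signal is scaled between fractions. With spike-in scaling it kept its direction, with medians of 16.38 and 16.50 without serum and 15.97 and 16.08 without amino acids. On the deposited scale the median share in fractions 8 to 12 went from 7.14% to 19.3% without serum and 23.8% without amino acids for MRPL, and from 7.80% to 21.1% and 24.0% for MRPS. All tested genes went from 7.17% to 22.5% and 23.1%, so that members gained in these fractions about as much as other genes. Cytosolic ribosomal protein mRNAs gained far more there: 49 RPL genes went from 14.1% to 59.4% and 70.1%, and 31 RPS genes from 18.0% to 60.8% and 71.7% (all by symbol, paralogs included). In fractions 18 to 22 the median share of MRPL went from 47.6% to 41.9% and 33.8%, and that of MRPS from 50.9% to 43.0% and 34.1%, beside 48.5%, 39.1% and 27.2% for all genes.

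Within a fraction, the share of all members together was lower at low numbers and higher at high numbers after starvation. In fraction 8 the 78 members made up 6644 of each 1000000 of signal in log phase, 2833 in the serum-starved gradient and 2767 in the one without amino acids. In fraction 18 they made up 12744, 15365 and 16734 of each 1000000. This share is free of the scale of the fraction, but it also moves with every other gene in the fraction, and cytosolic ribosomal protein mRNAs entered the low fractions in the same gradients. How much of the fall that accounts for was not tested. The ratio of mean MRPL to mean MRPS signal on the log2 scale was above 0 in 18, 19 and 19 of the 20 fractions of the log phase, minus serum and minus amino acid gradients, with medians of 0.11, 0.13 and 0.22.

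To take out the movement common to all mRNAs, shift was defined as the difference in position between 2 gradients minus its median over all tested genes. That median was -1.35 fractions without serum and -1.80 without amino acids, each against log phase. A member passed the size rule, which is no test, where its shift reached 1 fraction in either direction and the odd fractions and the even fractions, taken apart, each gave 0.5 or more of the same sign. Comparisons with log phase share that gradient, and are given side by side.

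Without serum the median member stayed near the median of all mRNAs, and 2 MRPL and 3 MRPS mRNAs passed the rule towards lower-numbered fractions. The median shift was 0.11 for MRPL and 0.32 for MRPS, and both signs depended on the scaling: with equal fraction totals they were -0.42 and -0.33, and with spike-in scaling -0.11 and 0.066. Of the 78 members 5 passed the rule towards lower-numbered fractions (6.41%), where 9.86% of all tested genes did. These were MRPS27 (-2.59), MRPL45 (-1.38), MRPL10 (-1.27), MRPS31 (-1.23) and MRPS24 (-1.09). Towards higher-numbered fractions 1 member passed, MRPL24 with 1.10 (1.28%), against 5.70% of all tested genes. On the deposited scale both shares were thus below those of all tested genes. With equal fraction totals 13 members passed lower (16.7%, against 13.1% of all tested genes) and 3 higher (3.85%, against 12.1%), so that the lower share was then above that of all tested genes. The count of 5 became 2 without fraction 9, and 8 without fraction 14, 15, 16 or 17. The count of 1 became 2 to 4 when any of fractions 13 to 20 was left out singly, and MRPL24 missed the rule without fraction 10 (0.95), with equal totals (0.26) and by spike-in scaling (0.63).

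Without amino acids more members passed the rule, and the 4 that passed towards higher numbers, all MRPS, had shifts close to the cut-off of 1. The median shift was -0.0076 for MRPL and 0.42 for MRPS, and these were -0.42 and -0.18 with equal fraction totals. Lower by the rule were 8 members (10.3%, against 9.57% of all tested genes): MRPS27 (-2.72), MRPL10 (-1.91), MRPL45 (-1.56), MRPS24 (-1.36), MRPL37 (-1.30), MRPS15 (-1.22), MRPS31 (-1.07) and MRPS22 (-1.05). Higher were 4 members (5.13%, against 6.84%): MRPS6 (1.16), MRPS35 (1.13), MRPS12 (1.08) and MRPS7 (1.01). On the deposited scale both shares were near those of all tested genes. By subunit, 4 of 29 MRPS (13.8%) and 0 of 49 MRPL passed higher, and MRPL24 had a shift of 0.97, just under the cut-off. With equal fraction totals 17 members passed lower (21.8%, against 16% of all tested genes) and 3 higher (3.85%, against 13%). Fraction 9 mattered most: without it the lower count was 5 and the higher count 1, and none of MRPS12 (0.84), MRPS35 (0.98), MRPS6 (0.97) and MRPS7 (0.77) passed. The higher count was 2 without fraction 19 or 21.

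The starved gradients differed little from each other for these genes. Minus amino acids against minus serum, the median shift was -0.074 for MRPL and 0.077 for MRPS. No member passed the rule in either direction, where 2.01% of all tested genes passed it higher and 1.06% lower. Of the 78 members 93.6% lay within 0.5 fractions of the common movement, against 76.1% of all tested genes. Median levels of the members lay well above that of all tested genes, as given below, and no background of like level was taken. The outermost members were MRPL10 (-0.63), MRPL15 (-0.52) and MRPL32 (-0.49) on the low side of the large subunit, and MRPL50 (0.64), MRPL33 (0.39) and MRPL13 (0.32) on its high side. In the small subunit they were MRPS9 (-0.42), MRPS18B (-0.27) and MRPS24 (-0.26), and MRPS6 (0.68), MRPS21 (0.51) and MRPS18C (0.30).

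**Figure D2:**
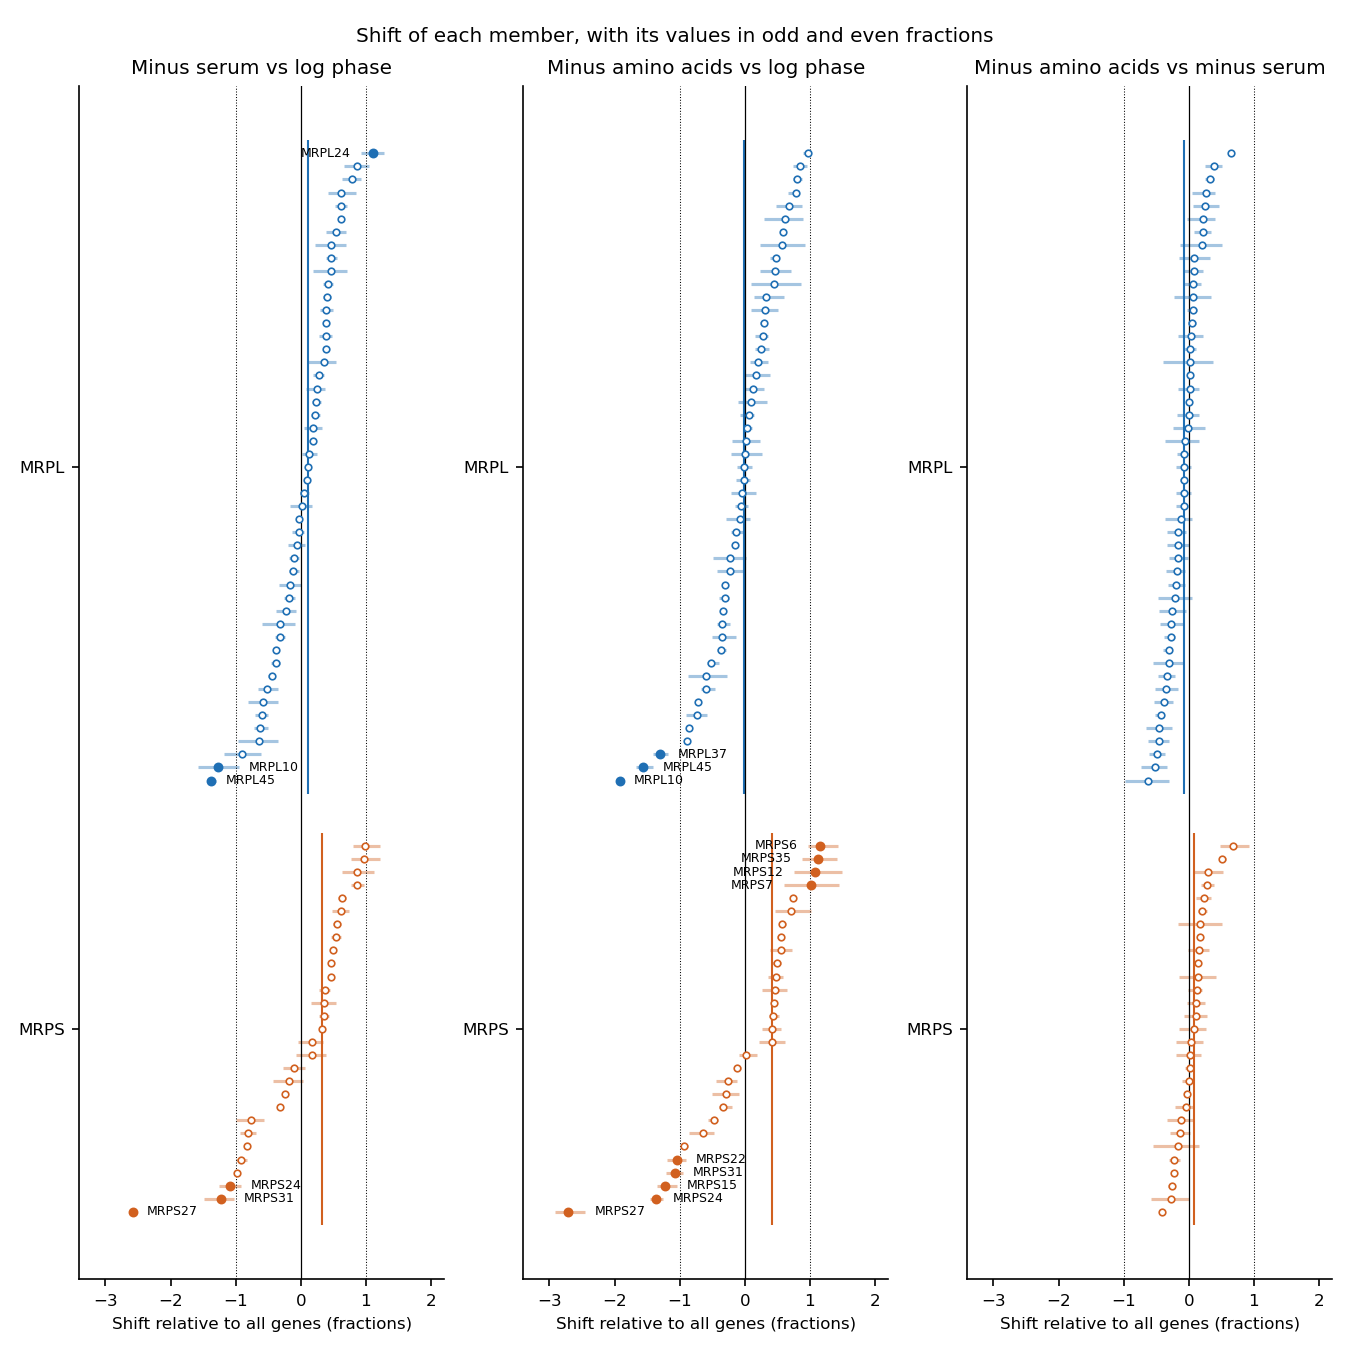
Shift of each of the 78 members relative to all tested genes (fractions, horizontal axis), ordered by shift within MRPL and MRPS, for the 3 comparisons. Points are the shift over all fractions, bars join its values in odd and in even fractions, filled points passed the size rule, dotted lines mark 1 fraction and coloured lines the medians; MRPS27 stands lowest against log phase, and no point is filled in the comparison of the starved gradients.

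On the deposited scale a smaller part of the small subunit mRNAs than of the large subunit ones lay close to the common movement. Counts of this kind were not recomputed on other scales, and they also reflect how far the MRPS median lay from that movement. Without serum 34 of 49 MRPL (69.4%) and 13 of 29 MRPS (44.8%) lay within 0.5 fractions of it, beside 55.4% of all tested genes. Without amino acids these were 31 (63.3%) and 12 (41.4%), beside 54.7%. The difference in median shift, MRPL minus MRPS, was -0.21 without serum (odd fractions -0.071, even -0.22) and -0.43 without amino acids (odd -0.37, even -0.38). The latter was -0.24 where fractions had the same total, -0.17 by spike-in scaling and -0.042 on log2 signal, and the former turned to 0.0079 on log2 signal. Quartiles of the shift without amino acids ran from -0.35 to 0.31 for MRPL and from -0.48 to 0.56 for MRPS, so that the subunits overlapped over most of their range. For scale, the shift of a member in odd and in even fractions differed by a median of 0.19 without serum and 0.23 without amino acids.

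MRPS27, a pentatricopeptide repeat protein of the small subunit, showed the strongest redistribution of all members in both comparisons. In log phase its signal had a lowest value of 0.41 in fraction 3, a median of 422 and a highest value of 6187 in fraction 20. Without serum these were 2.19, 507 and 1492, and without amino acids 1.19, 526 and 1409, with the highest value now in fraction 10 in both. On the deposited scale the peak had moved across the gradient, while a smaller peak stayed at fraction 20 in both starved gradients. MRPS27 held 11.4% in fraction 20 against 14.7% in fraction 10 without serum, and 8.72% against 13.9% without amino acids. Where the highest peak lies rests on the unknown scale of the fractions. Fractions 18 to 22 held 72.8% of its signal in log phase, 35.1% after serum starvation and 24.9% after amino acid starvation, and fractions 8 to 12 held 6.18%, 41.5% and 43.7%. Its position went from 18.34 to 14.41 and 13.83, and with equal fraction totals, where the common movement turned, from 16.86 to 15.42 and 15.68. MRPS27 passed the rule under every alternative scale or set of fractions tried except log2 signal, where its shifts were -0.36 and -0.31.

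Among large subunit mRNAs MRPL10, of the stalk that recruits translation factors, and MRPL45, at the exit of the nascent chain tunnel, moved most. MRPL10 had a lowest signal of 1.45, a median of 440 and a highest of 7160 (fraction 18) in log phase, 3.41, 511 and 2295 (fraction 19) without serum, and 2.18, 686 and 1760 (fraction 19) without amino acids. Its share in fractions 8 to 12 was 5.26% in log phase, 28.8% after serum starvation and 37.6% after amino acid starvation. The main peak of MRPL10 stayed at high numbers while a smaller peak at fraction 9 grew. MRPL45 had a lowest signal of 4.15, a median of 1800 and a highest of 8241 (fraction 18) in log phase, 11.0, 826 and 3175 (fraction 9) without serum, and 17.4, 974 and 3032 (fraction 9) without amino acids. Its share in fractions 8 to 12 went from 13.4% to 44.1% and 51.4%. Without fraction 9 the shifts without serum were -0.89 for MRPL10 and -1.08 for MRPL45, and neither met the rule in full.

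The partners of these proteins had shifts of either sign, and none of those named here passed the rule towards lower numbers. The other stalk proteins MRPL12 and MRPL11 had shifts of 0.62 and -0.58 without serum and 0.44 and -0.59 without amino acids. At the tunnel exit MRPL24 lay high (1.10 and 0.97) and MRPL44 low (-0.64 and -0.73). MRPL22 had shifts of 0.11 and 0.31, MRPL23 of 0.13 and -0.35, and MRPL47 of 0.39 and 0.040. MRPL24, which had the highest shift of the large subunit in both comparisons, held 3.57% of its signal in fractions 8 to 12 in log phase, 8.50% after serum starvation and 12.2% after amino acid starvation, while MRPL45 held 13.4%, 44.1% and 51.4%. MRPL37, found in mitochondria only, went from 8.45% to 35.8% and 44.5% there, with shifts of -0.90 and -1.30.

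Small subunit members stood on both sides. MRPS24, MRPS15, MRPS22 and MRPS31 lay low, with shifts of -1.09, -0.98, -0.81 and -1.23 without serum and -1.36, -1.22, -1.05 and -1.07 without amino acids. MRPS15, MRPS22 and MRPS31 missed the rule with equal totals (-0.78, -0.33 and -0.96) and with spike-in scaling (-0.93, -0.80 and -0.86) without amino acids. MRPS6, MRPS7, MRPS12 and MRPS35 lay high without amino acids, and had 0.50, 0.87, 0.99 and 0.98 without serum, below the rule. These 4 began with more signal at low numbers: in log phase MRPS6 held 22.9% in fractions 8 to 12, MRPS12 21.5%, MRPS35 18.7% and MRPS7 17.7%, against a median MRPS of 7.80%. Without amino acids MRPS35 held 28.7% and MRPS12 27.9%, against a median MRPS of 24.0%. They had thus gained less in these fractions than the median member, from a higher start.

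MRPS35, a mitochondria-specific protein of the small subunit, is given as 1 example of that set. Its signal in log phase had a lowest value of 1.96, a median of 1386 and a highest of 5723 in fraction 18. Without serum these were 6.21, 438 and 1855, and without amino acids 6.55, 566 and 1716, with the highest in fraction 19 in both. On the deposited scale its main peak moved by 1 fraction towards higher numbers while that of MRPS27 crossed to fraction 10. The median share of all tested genes likewise peaked in fraction 18 in log phase and in fraction 19 in both starved gradients. MRPS6 peaked in fraction 16 in every gradient, at 7078, 1296 and 1276.

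**Figure D3:**
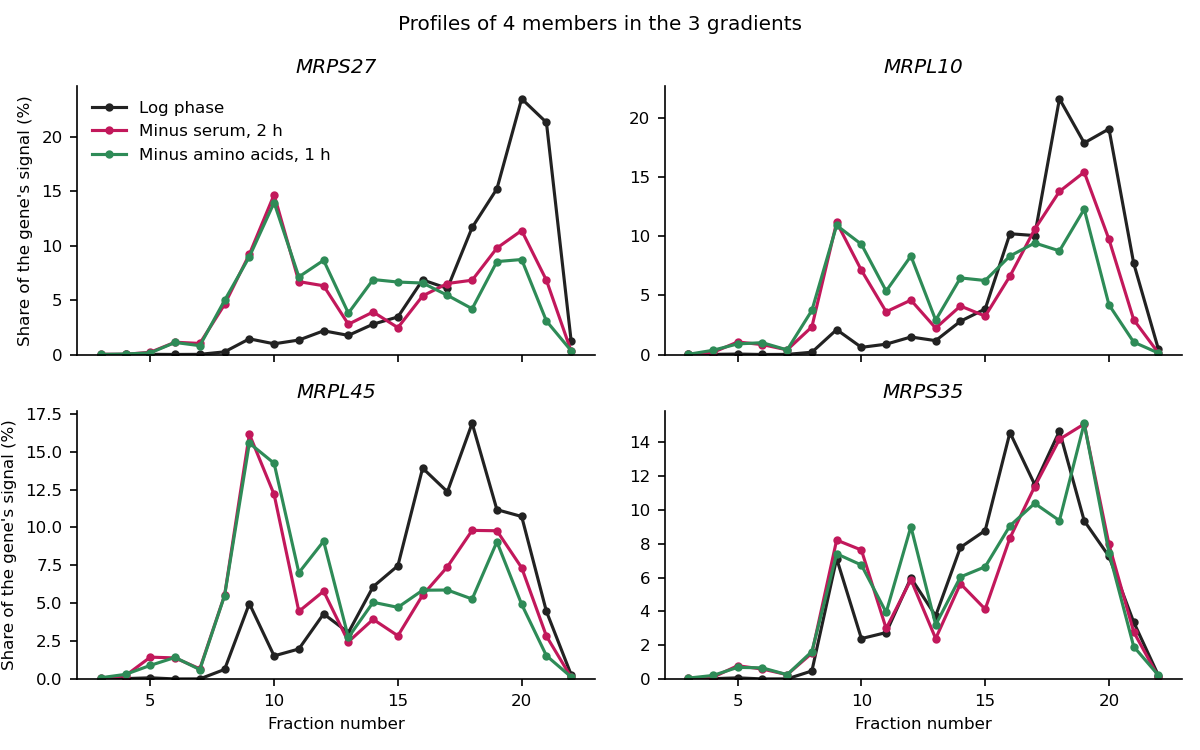
Share of the gene's signal (percent, vertical axis) in each fraction (horizontal axis) for MRPS27, MRPL10, MRPL45 and MRPS35 in log phase, minus serum and minus amino acids. On the deposited scale MRPS27 peaks in fraction 20 in log phase and in fraction 10 in both starved gradients. MRPS35 keeps its peak at fraction 18 or 19.

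Because the scale of each fraction is unknown, members were also set against each other within a fraction, where that scale cancels. In fractions 8 to 12 MRPS27 made up a median of 0.37% of the members' summed signal in log phase (range 0.24% to 0.55%), 1.25% without serum (0.80% to 1.95%) and 0.96% without amino acids (0.68% to 1.43%). MRPL10 went from 0.32% (0.25% to 0.45%) to 1.15% (0.85% to 1.51%) and 1.29% (0.92% to 1.43%). The ranges of the starved gradients did not overlap that of log phase for either gene. Both were picked for their shifts, and such ranges were not counted over all members. MRPL15, which passed no rule, also had ranges apart: 0.23% to 0.29% in log phase, 0.58% to 0.72% without serum and 0.65% to 0.88% without amino acids. MRPS6 fell without overlap when amino acids were absent, from 1.42% to 2.66% in log phase to between 0.53% and 0.91%. MRPS35 also fell, from 1.51% (0.73% to 1.97%) to 0.90% (0.50% to 1.23%) and 0.77% (0.44% to 0.79%), with ranges that overlapped. Shifts computed from these shares, an alternative added after the data were seen, were -3.91 and -3.98 for MRPS27 and -2.76 and -3.78 for MRPL10. MRPL24, MRPS15, MRPS22, MRPS35 and MRPS6 no longer met the rule on this scale.

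**Figure D4:**
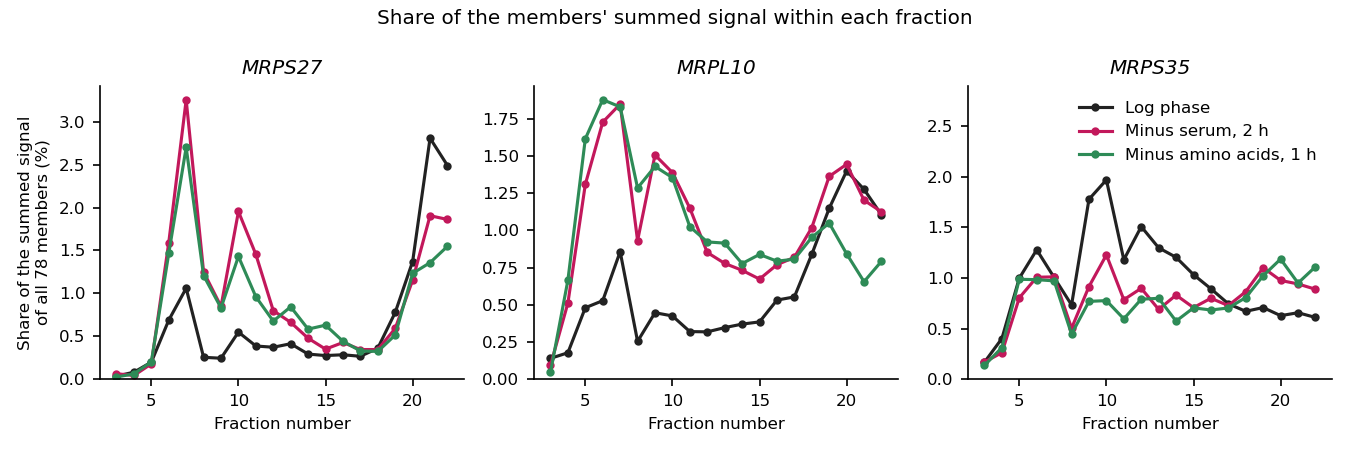
Share of the summed signal of all 78 members (percent, vertical axis) taken by MRPS27, MRPL10 and MRPS35 in each fraction (horizontal axis), by gradient. In fractions 8 to 12 MRPS27 and MRPL10 take more in both starved gradients than in log phase, with medians of 1.25% and 1.15% without serum against 0.37% and 0.32%.

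The members with a pyrimidine tract at the start, listed at the outset, lay below the others. This grouping was chosen after shifts had been seen. The median shift of the 6 was -0.78 without serum and -0.83 without amino acids, against 0.24 and 0.12 for the 63 members with a start record and no tract. All 6 had shifts below 0 in both comparisons, as did 22 and 25 of the 63. MRPS2 was closest to 0 with -0.10 and -0.28, and MRPS33 had -0.93 in both. Each of these 2 genes has a tract at 1 of its 2 recorded starts. All 6 stayed below 0 with equal fraction totals, from -0.74 (MRPS2) to -2.98 (MRPS27) without serum. Across all tested genes the 668 with a tract had medians of -0.39 and -0.45 and the 8031 without 0.030 and 0.023. With cytosolic ribosomal proteins left out, also an alternative added later, the medians with a tract were -0.31 and -0.41. The cytosolic RPS6, with a tract of 9 bases, had shifts of -4.19 and -4.30, and the medians of RPL and RPS genes were -2.97 and -3.03 without serum and -3.10 and -3.05 without amino acids, and MRPS27 came nearest to them among the members. Members without a tract at a recorded start also had low shifts, among them MRPS31, MRPS15 and MRPS22, and MRPL37 and MRPS24, which have 3 bases. MRPL10 has no start record.

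**Figure D5:**
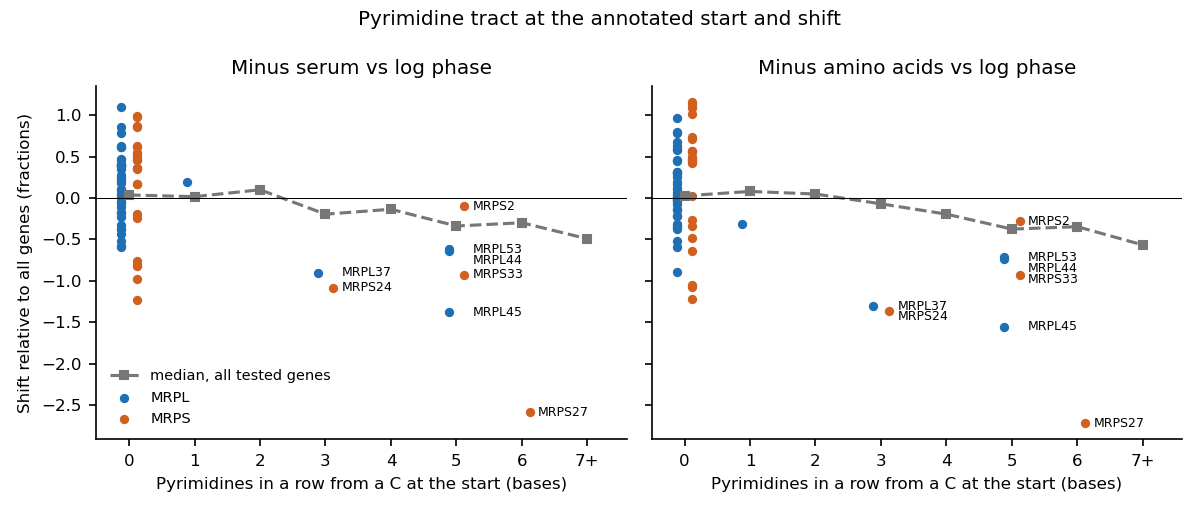
Shift against log phase (fractions, vertical axis) by the number of pyrimidines in a row from a C at the annotated start (horizontal axis) for 69 members, with the median of all tested genes at each length. The 6 members with 5 or more bases all lie below 0, and the median of all tested genes falls from 0.037 at 0 bases to -0.49 at 7 or more bases without serum.

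Level is signal summed over fractions per 1000000 of the gradient's total. It is thus a share, in which the number of cells and the total RNA per cell cancel. It moves with every other gene and rests on the unknown scale of the fractions. The members' levels were lower after starvation by about as much as those of the median gene. The median level of MRPL went from 135 in growing cells to 96.2 after serum starvation and 82.9 after amino acid starvation, that of MRPS from 101 to 74.4 and 62.0, and that of all tested genes from 14.4 to 10.5 and 9.21. On the log2(level + 1) scale the median change against log phase was -0.43 for MRPL and -0.41 for MRPS without serum, and -0.55 and -0.70 without amino acids. Centred on all genes it was -0.0018 for MRPL and 0.022 for MRPS without serum, and 0.037 and -0.11 without amino acids. Single members ran from -0.68 (MRPL36) to 0.54 (MRPL10) without serum and from -0.61 (MRPL49) to 0.83 (MRPL11) without amino acids. No member passed the rule for level, which asks for 1 on the log2 scale and 0.5 in odd and even fractions apart. The rule was passed by 3.95% of all genes tested for level without serum, 7.79% without amino acids, and 0.227% in the comparison of the starved gradients, where medians were 0.037 and -0.0068. MRPS27 and MRPL10 had low shifts in both comparisons, while their level changes on this log2 scale, centred on all genes, were 0.32 and 0.54 without serum. Without amino acids they were 0.30 and 0.47. These values are relative to the median gene, whose own level fell, and are not rises above log phase as such.

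The deposited table is named as TPM, a unit per transcript length, and on that scale the median MRPL and MRPS levels just given lay well above that of all tested genes in log phase. The highest levels in the large subunit were those of MRPL12 (400.1), MRPL37 (395) and MRPL51 (306), and the lowest MRPL1 (42.0), MRPL44 (50.8) and MRPL50 (74.2). In the small subunit MRPS34 (375), MRPS21 (279) and MRPS2 (257) were highest and MRPS31 (26.4), MRPS30 (38.6) and MRPS22 (60.7) lowest. MRPS31 was lowest in the starved gradients too, at 15.8 without serum and 12.4 without amino acids.

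Mitoribosome proteins whose symbols the rule does not match behaved as variably as the members. DAP3, a GTP-binding protein of the small subunit, had shifts of -1.47 without serum and -1.43 without amino acids and passed the rule in both. PTCD3, a pentatricopeptide repeat protein of the small subunit, had -1.14 and passed without serum, and had -0.31 without amino acids. AURKAIP1 (0.34 and 0.17), CHCHD1 (0.40 and 0.88) and GADD45GIP1 (0.51 and 0.25) did not pass. Of the members misplaced by name, MRPS30 had shifts of -0.76 and -0.65, MRPS18A 0.46 and 0.46, and MRPS36 -0.31 and -0.13. MRPS18B and MRPS18C had -0.19 and 0.17 without serum and -0.48 and 0.45 without amino acids. MRPL57 and MRPL58, the latter a peptidyl-tRNA hydrolase built into the large subunit, had -0.17 and 0.28 without serum and -0.14 and -0.0076 without amino acids.

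Other genes of mitochondrial gene expression lay around the members. They are read against the 9.86% and 9.57% of all tested genes that passed the rule lower without serum and without amino acids, and the 5.70% and 6.84% that passed higher. Of 11 translation factors 2 passed the rule lower in each comparison and none higher. MTRF1L, a release factor, had the lowest shift (-2.34 and -1.93), and the highest were C12orf65 without serum (0.78) and TSFM without amino acids (0.60). Of 21 assembly and rRNA modification factors 1 passed lower and 1 higher without serum, and 3 lower and 0 higher without amino acids. NOA1, a GTPase, was lowest of these (-2.13 and -1.84). Of 17 mitochondrial aminoacyl-tRNA synthetases 2 passed lower without serum and 5 lower without amino acids. MARS2, which charges methionine tRNA, was lowest (-2.71 and -1.99). Of 11 factors that copy, transcribe or stabilise mitochondrial nucleic acids 1 passed, TFAM, the main packaging protein of mitochondrial DNA, at 1.42 and 1.83. The median shifts of the 4 lists were -0.19, -0.072, -0.47 and 0.35 without serum and 0.15, -0.035, -0.35 and 0.14 without amino acids, beside 0.17 and 0.020 over the 78 members.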

How the data were processed

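Poly(A)+ RNA of 60 gradient fractions was measured. The labels list 63 samples, and the 3 lysates were not used here. The tools were kallisto 0.44.0 and sleuth 0.29.0 with the hg38 build, per the submitters' processing notes. The signal deposited by the authors is 1 value per gene symbol and fraction, with an unstated scale per fraction and an unknown depth. The 29 spike-in rows and 1 luciferase row were left out of the genes.

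Positions, shifts and levels were computed in Python 3.11.15 with numpy 2.4.6 and pandas 2.3.3, and figures with matplotlib 3.10.9. The scripts were checked on simulated data. Levels used a pseudocount of 1 and a minimum level of 5 in the higher of the gradients compared. Members, gene lists and tests were chosen with earlier results of these data known. Named members were the 3 lowest and 3 highest of each subunit by position, shift or level, every member past a size rule, and the stalk, tunnel exit and S18 relatives; of other lists, the lowest and highest shift, of which 1 is not reported here. Alternatives changed the scale of fractions, the fractions used, the filter, the centring and the pseudocount. A planned comparison with genes of like protein length was not run, since protein sequences were not used here.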

Additional observations from a re-analysis of the deposited data

How the results depend on the processing

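No paired analysis was possible because each condition was 1 gradient and the labels carry no replicate numbers. There was also no counting error, since depth is not given, so depth cannot be said to limit any value. The filter on low values changed no result, but all members had passed it. Of 885 recomputed summary values 768 stayed within the gap between odd and even fractions (0.1 at least; counts within 1.5 times) and 117 moved. Some of the 768 could hardly move. The odd and even fractions were themselves among the settings counted, and leaving out the centring cannot change MRPL minus MRPS. The share that stayed is therefore no measure of robustness. For the values that moved, the cause was not tested beyond what each alternative's construction shows. Lists of values follow the order MRPL, MRPS, MRPL minus MRPS.

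With equal fraction totals the median positions were 14.68, 14.86 and -0.17 in log phase, 15.69, 16.05 and -0.36 without serum, and for MRPS 16.25 and the difference -0.44 without amino acids. Median shifts were -0.42 and -0.33 without serum, -0.42, -0.18 and -0.24 without amino acids, and the difference -0.32 between the starved gradients. Counts were 3 higher and 13 lower without serum and 17 lower without amino acids, and median level changes without amino acids were 0.16 and 0.10.

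With spike-in scaling the median positions were 16.38, 16.50 and -0.12 without serum and 15.97 and 16.08 without amino acids. Median shifts were -0.11 and 0.066 without serum, and for MRPS 0.19 and the difference -0.17 without amino acids, and the count higher without serum was 3.

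On log2 signal, which compresses every profile, the median positions were 14.40 and 14.39 in log phase, 13.34, 13.43 and -0.093 without serum, and 13.25 and 13.38 without amino acids. The shift of MRPS was 0.032 and the difference 0.0079 without serum, 0.11 and -0.042 without amino acids, and the difference was -0.033 between the starved gradients. No member passed the rule (0 higher and 0 lower), and MRPS15 reversed to 0.12 without amino acids.

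Without centring, median shifts were -1.24 and -1.03 without serum, -1.81 and -1.38 without amino acids and -0.54 and -0.39 between the starved gradients. Counts were 47 lower and 0 higher, 71 lower and 0 higher, and 1 lower. Median level changes were -0.43 and -0.41, -0.55 and -0.70, and -0.14 and -0.18. MRPL24 reversed to -0.25 without serum, and MRPS12 (-0.72), MRPS35 (-0.67), MRPS6 (-0.64) and MRPS7 (-0.79) reversed without amino acids.

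A pseudocount of 5 gave level changes of -0.075 and -0.22 without amino acids. With proteins assigned by their place, the log-phase difference was 0.11.

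Leaving out each fraction in turn, the log-phase medians ran from 16.62 to 17.13 and from 16.69 to 17.21. Without serum they ran from 15.32 to 16.26 and from 15.21 to 16.32, the difference from -0.16 to 0.21 and the MRPL shift from 0.0061 to 0.16. Without amino acids the MRPS median ran from 14.76 to 15.75 and the difference from -0.24 to 0.050. Counts ran from 1 to 4 higher and 2 to 8 lower without serum, and from 1 to 5 higher and 5 to 11 lower without amino acids. Of 558 recomputed shifts of single members past the rule, 483 kept their direction and the rule, 69 kept the direction only and 6 reversed.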
